A study of Mus musculus with 6 samples.

Results

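Glucagon (Gcg) and 5 other marker genes of pancreatic alpha cells, Gc, Ttr, Irx1, Irx2 and Slc7a2, were followed in islets of mice that express lamin C only. The genes were chosen by name as alpha cell markers, all 6 were found among the 24407 genes of the deposited count table, and all 6 passed the filter on low counts. Islets of Langerhans, which hold the hormone-secreting cells of the pancreas, came from C57BL/6 mice with lamin C as the sole A-type lamin (labelled lmna LCS, here LCS) and from wild-type mice (WT). Both groups were 70 weeks old and ate regular chow, and neither label names a sex. There were 3 libraries in each group, and the islets of 3 mice were pooled for each, so differences between single animals are not seen. The sample titles mark the LCS libraries KIKI, and beyond that label the sources used here do not say how the LCS allele was made. A count per gene cannot tell lamin A from lamin C transcripts.

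Alpha cells release glucagon when blood glucose falls or amino acids rise, and glucagon makes the liver put out glucose. Gcg codes for proglucagon, which the convertase PC2 (gene Pcsk2) cuts to glucagon in alpha cells and PC1/3 (Pcsk1) cuts to glucagon-like peptides. Gc codes for the vitamin D-binding protein and Ttr for transthyretin, a carrier of thyroxine and, with retinol-binding protein, of retinol. Both are secreted proteins best known from the liver. Irx1 and Irx2 are Iroquois homeodomain transcription factors, and Slc7a2 codes for CAT2, a membrane transporter of arginine and other cationic amino acids.

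The stretches before the transcription starts of Gcg, of Gc, the sole called member, and of the transcription factor gene Irx2 are shown. The sequences are from RefSeq (GRCm38.p6, a later build than the mm9 that the processing notes name). Only these 3 of the 6 members are shown, and the sequences of the other members were not examined here. Each run holds the 250 bases before the start, 5′ to 3′ on the strand of the gene. The Irx2 window lies inside the annotated span of its gene (chr13:72624430-72634196), before an inner start. The Gcg and Gc windows adjoin the ends of theirs. Capitals mark matches on either strand to TATAAA, to the forkhead-type motif GTAAATA and to the E box CANNTG.
Gcg, chr2:62483654-62483903, minus strand: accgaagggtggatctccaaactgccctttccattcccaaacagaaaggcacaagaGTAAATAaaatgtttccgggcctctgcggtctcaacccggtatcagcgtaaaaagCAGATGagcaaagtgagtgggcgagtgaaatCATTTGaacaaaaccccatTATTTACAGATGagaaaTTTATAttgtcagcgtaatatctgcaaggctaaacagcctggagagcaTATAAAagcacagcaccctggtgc
Gc, chr5:89457899-89458148, minus strand: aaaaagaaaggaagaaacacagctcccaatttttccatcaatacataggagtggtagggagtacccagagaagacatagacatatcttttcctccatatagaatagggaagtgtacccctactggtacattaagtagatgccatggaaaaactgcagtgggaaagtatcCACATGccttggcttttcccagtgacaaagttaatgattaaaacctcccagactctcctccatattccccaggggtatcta
Irx2, chr13:72628570-72628819, plus strand: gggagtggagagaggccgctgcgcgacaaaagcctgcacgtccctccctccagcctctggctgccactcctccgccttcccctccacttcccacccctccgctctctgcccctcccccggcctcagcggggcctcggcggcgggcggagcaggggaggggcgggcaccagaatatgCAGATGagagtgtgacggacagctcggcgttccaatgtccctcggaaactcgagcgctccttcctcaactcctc

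The Gcg window held TATAAA at 24 to 19 bases before the start and, on the other strand, at 72 to 67. GTAAATA matches lay at 194 to 188 and, on the other strand, at 89 to 83 bases before it, and the second shares 1 base with the E box at 83 to 78. TATAAA was present in 12.4%, GTAAATA in 2.73% and CANNTG in 66.2% of 32851 windows of 250 bases before RefSeq starts. The Gc and Irx2 windows held 1 E box each and no match to the other motifs. GC content was 44.8% for Gcg, 42.0% for Gc and 68.4% for Irx2, against a median of 52.4% over all windows. These are letter matches and no measure of binding.

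The libraries held 26123654 to 68036676 counts. Of these, the 3 rows Rn45s, Lars2 and Mir6236 took 52.3% to 54.1% in LCS and 7.64% to 18.5% in WT (highest in WT replicate 1). They are called the ribosomal rows here, though Lars2 and Mir6236 are not ribosomal RNA genes. Scaled CPM, counts per 1000000 after TMM scaling of the libraries, are used below for levels. Of 14539 genes tested with edgeR, 2.21% passed at an adjusted p under 0.05, 300 higher and 21 lower in LCS. That is 2.06% higher and 0.144% lower, so higher genes made up 93.5% of the calls. When transcript length was corrected for, 0.521% of genes were called, with GC content corrected as well 5.83% (55.0% of them higher), and by longest transcript 0.308% (83.3% of them higher). Leaving out WT replicate 1 gave 2999 calls, 20.2% of the genes then tested. Beta cell markers summed to 147908 to 263758 CPM per library. In bulk islets a lower share of alpha cells and less of an RNA per alpha cell cannot be told apart.

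Of the 6 alpha cell genes, Gc alone passed the test and was higher in LCS islets, Gcg missed the threshold, and Slc7a2 had the sole negative fold change. The 6 genes had a median log2 fold change (LCS over WT) of 0.62, beside 0.01 over all genes tested. In 5 of 6 the libraries of the groups did not overlap, 4 higher and 1 lower in LCS, beside 26.6% of all genes tested (14.6% higher and 12.0% lower). At a raw p below 0.05, 4 of the 6 were higher and 1 lower, beside 13.3% and 10.8% of all genes. DESeq2 called Gc and Irx1 higher and Slc7a2 lower, where it called 6.41% of all genes higher and 3.95% lower.

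Gcg, the hormone gene, had 16080, 15763 and 20583 CPM across LCS replicates 1 to 3, against 12048, 15728 and 13957 CPM across WT replicates 1 to 3. The groups were separated by the narrow gap between LCS replicate 2 and WT replicate 2, and LCS replicate 3 stood highest. The means were 17475 ± 2696 CPM in LCS and 13911 ± 1840 CPM in WT (SD, n = 3), a log2 fold change of 0.33 (SE 0.21) that missed the threshold (adjusted p in edgeR = 0.366). With an offset for the length of the longest transcript the sign turned, to -0.32 (SE 0.21, adjusted p in edgeR = 0.44). That offset was chosen after the data were seen.

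Scaling bears on Gcg, so its share within each library was also taken. Gcg made up 6.99%, 8.15% and 7.14% of the counts of the islet hormone genes Gcg, Ins1, Ins2, Iapp, Ppy and Sst in LCS replicates 1 to 3, and 7.54%, 8.41% and 7.99% in WT replicates 1 to 3. The shares overlapped between the groups, with means of 7.42% ± 0.632 in LCS and 7.98% ± 0.434 in WT (SD, n = 3, two-sided exact permutation test, p = 0.3, where 0.1 is the smallest possible). Of all counts outside the ribosomal rows, Gcg took 2.57% ± 0.222 in LCS and 2.30% ± 0.245 in WT (SD, n = 3, two-sided exact permutation test, p = 0.3), the opposite direction. Gcg had 9.39 ± 1.23 counts per 100 insulin (Ins1 and Ins2) counts in LCS and 10.5 ± 0.788 in WT (SD, n = 3, two-sided exact permutation test, p = 0.2). The direction of the Gcg difference thus depended on what it was measured against.

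Gc, the vitamin D-binding protein gene, had 90.9, 78.5 and 83.1 CPM across LCS replicates 1 to 3, against 53.0, 55.5 and 53.0 CPM across WT replicates 1 to 3. Every LCS library lay above every WT library, and the WT libraries lay close together. The means were 84.1 ± 6.30 CPM in LCS and 53.9 ± 1.46 CPM in WT (SD, n = 3). Gc rose 1.56-fold in LCS (log2 0.64, SE 0.13, adjusted p in edgeR = 0.0382). The call ended without LCS replicate 1, LCS replicate 3, WT replicate 2 or WT replicate 3 (adjusted p in edgeR = 0.142, 0.0977, 0.189 and 0.136), while the log2 fold change stayed within 0.61 to 0.72 over all 6 libraries left out in turn. It also ended with a length offset (log2 0.47, adjusted p in edgeR = 0.107) and with an offset for the longest transcript (log2 0.33, adjusted p in edgeR = 0.266).

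Ttr, the transthyretin gene, had 626, 486 and 1006 CPM across LCS replicates 1 to 3, against 345, 548 and 474 CPM across WT replicates 1 to 3. LCS replicate 3 stood far above the rest, and LCS replicate 2 lay below WT replicate 2. The means were 706 ± 269 CPM in LCS and 456 ± 103 CPM in WT (SD, n = 3), a log2 fold change of 0.63 (SE 0.27) that missed the threshold (adjusted p in edgeR = 0.194). Without LCS replicate 3 it was 0.30 (adjusted p in edgeR = 0.577), and with an offset for the longest transcript 0.003 (adjusted p in edgeR = 0.996).

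**Figure D1:**
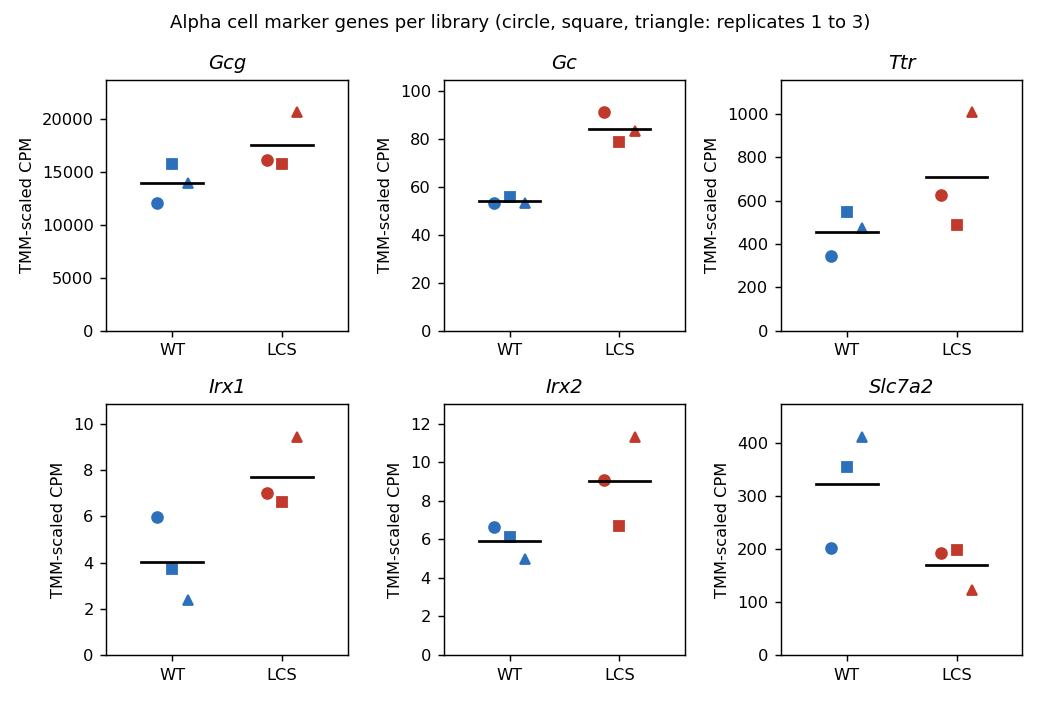
TMM-scaled CPM of the 6 alpha cell genes per library (blue for WT, red for LCS; bars, means of 3 libraries), each vertical axis starting at 0. Gc lies at 78.5 to 90.9 CPM in LCS and 53.0 to 55.5 in WT, and WT replicate 1 (circle) lies next to the LCS libraries for Irx1 and Slc7a2.

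The Iroquois gene Irx1 had 6.99, 6.62 and 9.44 CPM across LCS replicates 1 to 3, against 5.97, 3.73 and 2.38 CPM across WT replicates 1 to 3, from 91 to 337 counts per library. WT replicate 1 came close to the LCS libraries and the other WT libraries lay well below. The log2 fold change was 0.93 (SE 0.32) and missed the threshold (adjusted p in edgeR = 0.127). With WT replicate 1 left out, Irx1 was called higher at 1.33 (SE 0.26, adjusted p in edgeR = 0.00804), where 12.5% of all genes were called higher. With length and GC content both corrected for it was 0.42 (adjusted p in edgeR = 0.151).

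Irx2, its neighbour in the same gene cluster, had 9.09, 6.72 and 11.3 CPM across LCS replicates 1 to 3, against 6.63, 6.12 and 4.96 CPM across WT replicates 1 to 3. LCS replicate 2 and WT replicate 1 nearly touched. The log2 fold change was 0.61 (SE 0.23, adjusted p in edgeR = 0.153), and 0.16 with length and GC content both corrected for (adjusted p in edgeR = 0.584). Irx1 had 76.9, 98.5 and 83.4 counts per 100 Irx2 counts in LCS replicates 1 to 3 and 90.0, 60.9 and 47.9 in WT replicates 1 to 3 (two-sided exact permutation test, p = 0.3 on the log2 scale). Of the other Iroquois genes, Irx4, Irx5 and Irx6 had 0 counts in every library. Whether the deposited counts could hold reads of these genes was not tested. If they could, 0 counts allow up to 3 counts per library for each. Irx3 had 2, 12 and 3 counts in LCS and 25, 2 and 1 in WT replicates 1 to 3.

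Slc7a2, the cationic amino acid transporter gene, had 192, 197 and 122 CPM across LCS replicates 1 to 3, against 203, 354 and 411 CPM across WT replicates 1 to 3. Every LCS library lay below every WT library, but WT replicate 1 lay just above LCS replicate 2. The means were 171 ± 42.2 CPM in LCS and 323 ± 108 CPM in WT (SD, n = 3). The log2 fold change was -0.92 (SE 0.27) and missed the threshold (adjusted p in edgeR = 0.0965). Leaving WT replicate 1 out, Slc7a2 was called lower at -1.16 (SE 0.21, adjusted p in edgeR = 0.00506), where 7.68% of all genes were called lower.

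**Figure D2:**
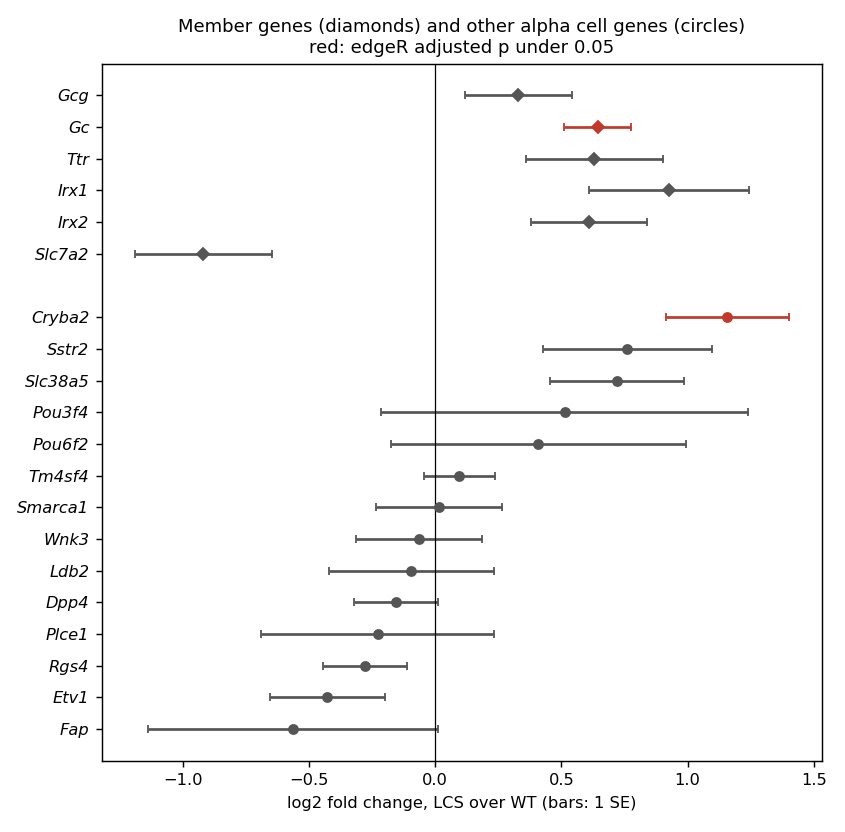
Log2 fold change of LCS over WT with 1 SE for the 6 genes (diamonds) and 14 other alpha cell genes (circles), in red where the adjusted p in edgeR is under 0.05. Gc at 0.64 and Cryba2 at 1.16 are red, and Slc7a2 at -0.92 lies farthest to the left.

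Levels between genes were compared per kilobase of the longest annotated transcript (GENCODE M21). In WT, Gcg stood at 12786 CPM per kilobase, Ttr at 384, Slc7a2 at 40.8, Gc at 29.9, Irx2 at 2.25 and Irx1 at 1.70. In LCS the order of Slc7a2 and Gc was exchanged, with 46.7 CPM per kilobase for Gc and 21.6 for Slc7a2, and the transcription factor genes again came last (3.44 for Irx2 and 3.24 for Irx1). In WT the libraries of Slc7a2 and Gc overlapped (25.6 to 52.0 and 29.4 to 30.8 CPM per kilobase), in LCS they did not, and Irx1 and Irx2 overlapped in both groups.

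To look at the markers apart from the amount of glucagon mRNA, counts of each were set against Gcg counts of the same library, 5 ratios in all. Such a ratio does not depend on the number of alpha cells only if both genes are expressed in those cells alone. Whether this holds in these islets was not tested, so a ratio may also move with other cells. Slc7a2 had 12.0, 12.5 and 5.92 counts per 1000 Gcg counts in LCS replicates 1 to 3 and 16.8, 22.5 and 29.5 in WT replicates 1 to 3. These groups did not overlap and differed by -1.22 on the log2 scale (LCS minus WT), 2.32-fold lower in LCS, at p = 0.1 in a two-sided exact permutation test, the smallest p that 3 against 3 libraries can give. The other ratios overlapped between the groups. Gc stood at 4.89 ± 0.813 per 1000 Gcg counts in LCS and 3.91 ± 0.444 in WT (SD, n = 3, two-sided exact permutation test, p = 0.2), and Ttr at 39.6 ± 9.04 and 32.5 ± 3.35 (SD, n = 3, exact p = 0.3). Irx2 stood at 0.514 ± 0.0763 and 0.432 ± 0.104 (SD, n = 3, exact p = 0.3). Irx1 stood at 0.438 ± 0.0196 in LCS and 0.301 ± 0.172 in WT (SD, n = 3, p = 0.4 in the exact test). For Irx1, WT replicate 1 was the highest of the 6 libraries at 0.495 and WT replicates 2 and 3 the lowest at 0.237 and 0.170. The log2 difference for Irx1 was 0.69, and 1.12 without WT replicate 1.

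**Figure D3:**
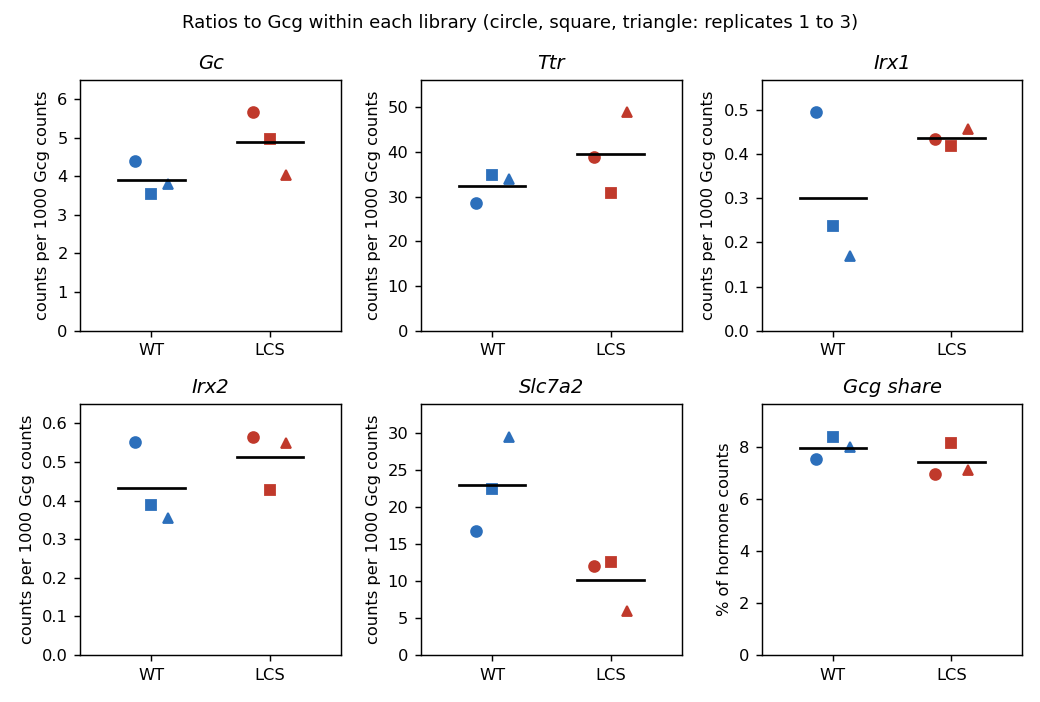
Counts of 5 genes per 1000 Gcg counts, and Gcg as a percent of islet hormone counts, by library (blue for WT, red for LCS, bars are means of 3 libraries, axes start at 0). Slc7a2 alone separates the groups (5.92 to 12.5 in LCS, 16.8 to 29.5 in WT).

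Transcript length moved with these differences. For the 500 protein-coding genes nearest to Gcg in the length of the longest transcript (1088 nt), the median log2 fold change was 0.60, so the 0.33 of Gcg lay below the median of genes of like length. Ttr (1186 nt) at 0.63 lay near the median of its like-length genes, 0.53. Gc (1801 nt) at 0.64 lay above the upper quartile of 0.54 and below the 95th percentile of 0.97, and Irx2 (2625 nt) at 0.61 lay between 0.34 and 0.76 on the same measures. Irx1 (2373 nt) at 0.93 lay above the 95th percentile of 0.78, and Slc7a2 (7910 nt) at -0.92 lay below the 5th percentile of -0.79, where the median was -0.27. The like-length medians of Slc7a2 and Gcg alone differed by -0.88, beside -1.25 between the fold changes of the genes themselves. With the offset for the longest transcript Gc, Irx1, Irx2 and Slc7a2 were at 0.33, 0.79, 0.50 and -0.64, and none of the 6 genes was called (edgeR; 3 higher and 1 lower at a raw p below 0.05). Of the 13623 genes in that fit, 1102 were higher and 1268 lower at that raw p. The longest transcript was taken as the length after the data were seen. With lengths taken as the median over transcripts, which counts short partial models, the like-length medians lay closer together, at 0.16 for Gcg, 0.13 for Ttr and -0.19 for Slc7a2. Gcg then lay above the median of its like-length genes, Ttr above an upper quartile of 0.44 and Irx2 below one of 0.65, while Irx1 still lay above the 95th percentile (0.84) and Slc7a2 below the 5th (-0.73).

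**Figure D4:**
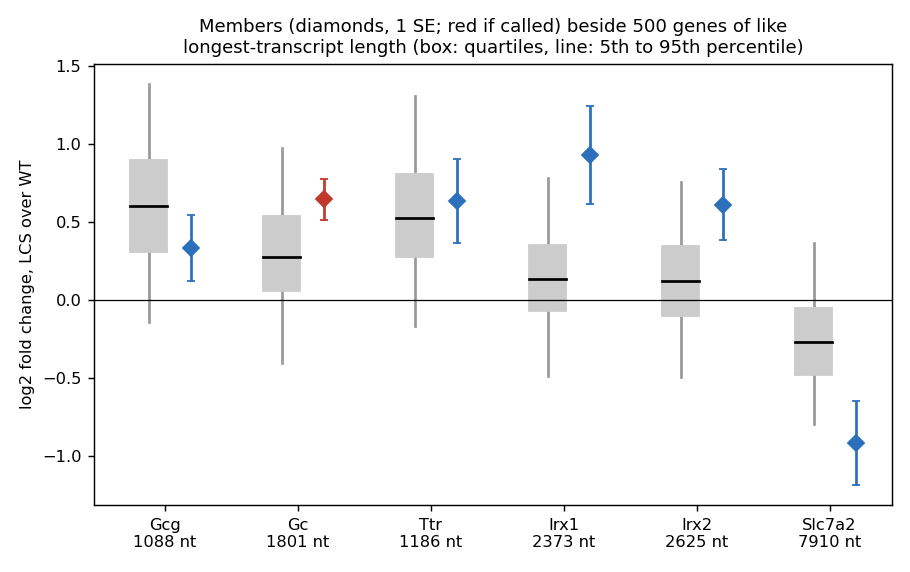
Log2 fold change of each of the 6 genes (diamonds with 1 SE, red where called) beside 500 protein-coding genes of like longest-transcript length (box, quartiles with the median as a line; thin line, 5th to 95th percentile). The like-length medians go from 0.60 at the length of Gcg to -0.27 at that of Slc7a2, and Irx1 and Slc7a2 lie outside their thin lines.

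Other alpha cell genes were taken as a list of 17, of which 16 were tested. Of these 1 rose and none fell (edgeR; 4 higher and 0 lower at a raw p below 0.05, and DESeq2 called 1 higher and 0 lower), and the median log2 fold change was 0.06. Cryba2, a beta-crystallin gene, rose 2.23-fold, from 10.8, 8.12 and 6.09 CPM across WT replicates 1 to 3 to 17.2, 15.3 and 23.6 CPM in LCS (log2 1.16, SE 0.24, adjusted p in edgeR = 0.0419). The call held in 9 of 16 alternatives and ended when any library other than WT replicate 1 was left out (log2 0.96 to 1.39 over the libraries left out). The somatostatin receptor gene Sstr2 and the amino acid transporter gene Slc38a5 were at 0.76 (SE 0.33) and 0.72 (SE 0.27), with adjusted p in edgeR of 0.201 and 0.147. When WT replicate 1 was left out, 3 of the 16 were called higher and 0 lower, beside 12.5% and 7.68% of all genes in that fit.

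Of 10 tested transcription factors that act on the glucagon gene or in alpha cells, none passed the test (edgeR; 1 higher and 0 lower at a raw p below 0.05, DESeq2 called 0), and without WT replicate 1, 2 were called higher, where 12.5% of all genes were. The median was 0.40, with Foxa3 at 0.37 (SE 0.22) and Neurod1 at -0.38 (SE 0.20), both with no call (adjusted p in edgeR = 0.341 and 0.275). Of 6 proglucagon processing genes none passed (edgeR; 0 at a raw p below 0.05, DESeq2 called 0). Pcsk2, for the convertase that yields glucagon, was at 0.26 (SE 0.17), Pcsk1, for the convertase that yields glucagon-like peptides, at -0.41 (SE 0.25), and Scg5, for the PC2 chaperone 7B2, at 0.28 (SE 0.16), with adjusted p in edgeR of 0.365, 0.336 and 0.300.

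Of 5 tested receptor and peptidase genes for glucagon and the incretins, none passed (edgeR; 1 higher and 1 lower at a raw p below 0.05), and DESeq2 called Gipr lower, as did the fit with length and GC content both corrected for (-0.92, adjusted p in edgeR = 0.0364). Over all genes, DESeq2 called 3.95% lower, and the fit for length and GC content called 357 of 13623 lower. The glucagon receptor gene Gcgr was at 0.33 (SE 0.28), the GLP-1 receptor gene Glp1r at -0.24 (SE 0.20), the GIP receptor gene Gipr at -0.73 (SE 0.24) and the receptor partner gene Ramp2 at 0.85 (SE 0.34). Their adjusted p in edgeR were 0.483, 0.470, 0.120 and 0.168. Ramp2 was called higher without WT replicate 1 (1.37, adjusted p in edgeR = 0.00501), where 12.5% of all genes were, and lay between 0.61 and 1.37 over the libraries left out. Of 6 tested genes for inputs to glucagon secretion none passed (edgeR; 1 higher and 1 lower at a raw p below 0.05, DESeq2 called 0). The insulin receptor gene Insr was at -0.55 (SE 0.20) and the calcium-sensing receptor gene Casr at -0.20 (SE 0.22), with adjusted p in edgeR of 0.145 and 0.599. Without WT replicate 1 Insr was called lower (-0.67, adjusted p in edgeR = 0.0340) and Sstr2 higher (1.08, adjusted p in edgeR = 0.0461), where 7.68% of all genes were called lower and 12.5% higher.

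Around Slc7a2, none of 12 tested genes of amino acid transport and arginine use passed (edgeR; 2 higher and 2 lower at a raw p below 0.05), with a median of -0.02. DESeq2 called 1 of them higher, Arg1, where it called 6.41% of all genes higher. Arg1, for arginase, had 17.0, 16.8 and 17.3 CPM across LCS replicates 1 to 3, against 11.7, 11.9 and 10.8 CPM in WT (log2 0.57, SE 0.15, adjusted p in edgeR = 0.07), with no overlap. The transporter genes Slc38a4 and Slc38a2 were at -0.49 (SE 0.18) and -0.39 (SE 0.14), with adjusted p in edgeR of 0.148 and 0.140. Without WT replicate 1 Arg1 was called higher (0.59, adjusted p in edgeR = 0.0260) and Slc38a4 lower (-0.61, adjusted p in edgeR = 0.0351), where 12.5% of all genes were called higher and 7.68% lower. Arg1 was also called at a minimum of 10 CPM (0.63, adjusted p in edgeR = 0.0448), where 272 of 7638 genes were called higher.

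Around Ttr, the retinol-binding protein gene Rbp4, whose product travels with transthyretin in plasma and which is also a delta cell marker, rose 1.94-fold, from 96.7, 68.7 and 61.6 CPM across WT replicates 1 to 3 to 120, 143 and 176 CPM in LCS (log2 0.96, SE 0.21, adjusted p in edgeR = 0.0458). Its call held in 8 of 16 alternatives and ended when any library other than WT replicate 1 was left out (log2 0.81 to 1.17). It was the sole call among 6 tested genes of retinol and thyroid hormone carriage, whose median was 0.08. Around Gc, none of 5 tested genes of the vitamin D pathway and the albumin family passed (edgeR; 0 higher and 1 lower at a raw p below 0.05). The vitamin D receptor gene Vdr was at -0.40 (SE 0.16, adjusted p in edgeR = 0.17), with 76.6, 86.0 and 60.7 CPM in LCS and 99.6, 103 and 91.1 CPM across WT replicates 1 to 3. With length and GC content both corrected for, Vdr was called lower (adjusted p in edgeR = 0.0350), where 357 of 13623 genes were.

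Since Gc and Ttr are also liver genes and Slc7a2 is also expressed outside the islet, markers of other cell types were read beside them. Of 16 hepatocyte markers 8 passed the filter and none was called (edgeR; 3 higher and 1 lower at a raw p below 0.05). They summed to 47.4 to 63.6 CPM in LCS and 51.0 to 57.0 CPM in WT, and albumin (Alb), the defining marker, lay between 0.223 and 0.592 CPM in all libraries. Like sums hide moves in both directions. Tat was at -0.63, and Apoa2, Fgb and Cyp2e1 were at 0.97, 0.91 and 1.05, all named after their values were seen. Acinar cell markers moved with genotype. Of 17 listed, 15 were tested and 14 rose, beside 2.06% of all genes. Without LCS replicate 3, 7 rose, where 81 of 14805 genes were called higher. Without LCS replicate 2, 9 rose, where 262 of 14806 were. With the offset for the longest transcript 6 rose, where 35 of 13623 were. The acinar list summed to 574 to 981 CPM in LCS and 192 to 291 CPM in WT. None of the 17 was at 0 in all libraries, and the 2 below the filter, the regulators Ptf1a and Rbpjl, had 0 to 11 counts per library. The 3 PP and epsilon cell markers summed to 3249 to 6031 CPM in LCS and 840 to 1490 CPM in WT, with Ppy called higher (adjusted p in edgeR = 0.0172). The Ppy call ended without LCS replicate 3, with the length offset and with the offset for the longest transcript. The 5 delta cell markers summed to 1747 to 2286 CPM in LCS and 314 to 1319 CPM in WT, and 1 of them, Rbp4, was called. The somatostatin gene Sst, named after its values were seen, had 1613 to 2097 CPM in LCS, against 1209, 412 and 238 CPM across WT replicates 1 to 3 (log2 1.57, SE 0.48, adjusted p in edgeR = 0.103). Sst made up most of the delta cell sums. The rest of that list, also named after their values were seen, went both ways without a call: Hhex at 0.24, Ghsr at -0.64 and Lepr at -0.14. Of 6 macrophage markers 1 rose, the lysozyme gene Lyz2 (2.79-fold, adjusted p in edgeR = 0.0142), and the list summed to 71.1 to 88.3 CPM in LCS and 48.8 to 57.9 CPM in WT. The Lyz2 call ended without LCS replicate 1 and with the offset for the longest transcript (adjusted p in edgeR = 0.132 with that offset). The other macrophage markers, named after their values were seen, went both ways without a call. C1qa was at 0.78 and C1qb at 0.44, and Adgre1 at -0.62, Csf1r at -0.16 and Cd68 at -0.03. Of these Adgre1 was lower in LCS with no overlap. No marker of beta, duct, endothelial, B and T, stellate or Schwann cells was called (edgeR; at a raw p below 0.05, 1 beta cell marker was higher and 2 lower, and 1 each of the duct, B and T and stellate cell lists was higher). The 3 red blood cell markers had 0 counts in every library. Whether the deposited counts could hold reads of these genes was not tested, so nothing on blood cells is drawn from this. Of 4 adipocyte markers Cfd and Plin1 had 0 counts in every library, and the sole one tested, Fabp4 (a fatty acid binding protein gene, named after its values were seen), was not called but did not overlap, with 16.4, 14.1 and 14.1 CPM across LCS replicates 1 to 3, against 6.86, 11.7 and 11.4 CPM across WT replicates 1 to 3 (log2 0.58, adjusted p in edgeR = 0.151). The part of these cells in the values of the 6 genes was not tested.

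The genes whose profile over the 6 libraries was most like that of each marker were taken by the root-mean-square distance between centred log2 CPM, among 9286 named protein-coding genes with a mean of at least 5 CPM. Nearest to Gcg were Msrb1 (distance 0.04), Serhl (0.05) and Akr1c13 (0.05), nearest to Gc were Gabarap, Tstd3 and Tmem242 (0.05, 0.06 and 0.07), and nearest to Slc7a2 were Ubn2, Map2 and Eml5 (0.05, 0.07 and 0.07). Ttr lay nearest to Mgp, Iah1 and Pla2g16 (0.12, 0.13 and 0.13), Irx1 to Ndufaf3, Dgcr6 and Josd2 (0.07, 0.08 and 0.09) and Irx2 to Eef1a2, Tprgl and Fbxo44 (0.03, 0.04 and 0.05). None of the 6 markers was among the 3 genes nearest to another. Seen from Gcg, Gc ranked 1670, Ttr 2083, Irx2 2625, Irx1 8387 and Slc7a2 9059 of 9286. These ranks differ by viewpoint: seen from Ttr, Gcg ranked 107, Irx2 350, Gc 773, Irx1 6157 and Slc7a2 9078. The distances rest on 6 libraries, 3 of each genotype, so genes that differ between the groups alike lie close.

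**Figure D5:**
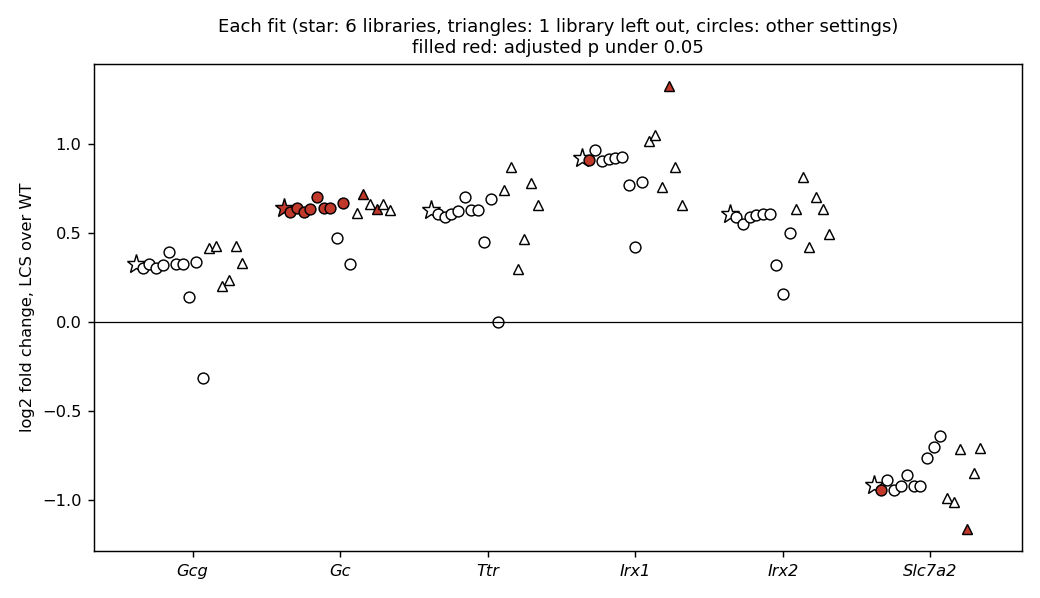
Log2 fold change (LCS over WT) of each gene in every fit: all 6 libraries (star), 1 library left out (triangles) and other settings (circles), filled red at an adjusted p under 0.05. Gcg crosses 0 once (-0.32, offset for the longest transcript), and the red triangles of Irx1 (1.33) and Slc7a2 (-1.16) are the fits without WT replicate 1.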

How the data were processed

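Islet RNA came from a TRIzol extraction and, labelled as poly(A) RNA, went into stranded TruSeq libraries, per the labels' protocols. HTSeq 0.9.0, TopHat2 2.1.1, Bowtie2 2.2.9 and the mm9 build are listed, without roles, in the submitters' processing notes. The sources used here give neither the gene annotation nor the strand setting. The authors deposited whole-number counts per gene, not normalised. Replicate numbers follow accession order and pair nothing.

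The test was edgeR 4.0.16 (R 4.3.3) with filterByExpr defaults, TMM factors of 0.633 to 1.498, a quasi-likelihood test on all 14539 genes left and Benjamini-Hochberg adjustment, called under 0.05. The steps were tested on simulated counts. Alternatives were DESeq2 1.42.0, limma-voom (limma 3.58.1), DESeq2 size factors, other filters, leaving out the ribosomal rows, protein-coding genes only, loess offsets (span 0.5) for transcript length and GC content, and leaving out each library. The 23 gene lists, the 6 genes among them, were chosen with earlier results of these data known. Named genes were the 6, called list members and up to 4 further members per list with the smallest p. Some further list members are marked as named after their values were seen. Some list members are counted but their values are not reported here. With 3 against 3 libraries exact permutation tests cannot give a p under 0.1.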

Additional observations from a re-analysis of the deposited data

How the results depend on the processing

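Limits: 3 pools per group, no labelled batch, and Irx1 and Irx2 with at most 355 counts per library. Library make-up also split along genotype. The ribosomal rows took 52.3% to 54.1% of counts in LCS and 7.64% to 18.5% in WT. TMM factors were 0.633 to 0.749 in LCS and 1.395 to 1.498 in WT. Genotype and this split cannot be told apart with these libraries, and its part in the fold changes was not tested. Of all genes, 321 were called, against 1507 with DESeq2 (61.8% higher), 686 with no filter on low counts (81.6% higher), 71 with a length offset, 794 with a length and GC offset (55.0% higher), 42 with an offset for the longest transcript, which was chosen after the data were seen, and 82 to 2999 when each library was left out (61.9% higher without WT replicate 1). Log2 fold changes (LCS over WT) kept their sign for Gc, Ttr, Irx1, Irx2 and Slc7a2 in every alternative run. Gcg kept its sign in 15 of 16 and turned to -0.32 with the longest-transcript offset. Gc was called in 10 of 16 alternatives, and was at 0.47 with the length offset, 0.33 with the longest-transcript offset and 0.61 to 0.72 when each library was left out. Irx1 and Slc7a2 were called with DESeq2 (0.91 and -0.95) and without WT replicate 1, with ranges over the libraries left out of 0.66 to 1.33 and -1.16 to -0.71. Gcg, Ttr and Irx2 were called in none. Irx1 and Irx2 gave no value at a minimum of 10 CPM. The Gcg share of hormone counts differed by -0.55 percentage points (LCS minus WT) and by -0.92 to -0.33 with each library left out, while its share of all counts outside the ribosomal rows differed by 0.275. The ratios to Gcg kept their sign in every alternative run, with log2 differences over the libraries left out of 0.20 to 0.45 for Gc, 0.10 to 0.43 for Ttr, 0.35 to 1.12 for Irx1, 0.14 to 0.45 for Irx2 and -1.42 to -0.87 for Slc7a2. Among other named genes, signs turned for Scg5 (-0.29), Thrb (0.0674) and Dio1 (-0.18) with the longest-transcript offset, for Dio1 with the length offset (-0.0684) and the length and GC offset (-0.21), for Casr without LCS replicate 3 (-0.36 to 0.0177 over the libraries left out) and for Alb without WT replicate 2 (-0.62 to 0.0133). The cause was not tested. No paired analysis was possible because the labels give no replicate number shared between the groups.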

Other observations

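Pcsk1n, which codes for proSAAS, an inhibitor of PC1/3, varied more among WT pools than between genotypes. It had 471, 76.7 and 39.6 CPM in WT replicates 1 to 3 and 283, 439 and 388 CPM in LCS replicates 1 to 3 (log2 fold change 0.92, SE 0.71, edgeR adjusted p = 0.451). Without WT replicate 1 it was called higher in LCS at 2.67 (edgeR adjusted p = 0.000576), where 12.5% of all genes were called higher. In this gene, as in Irx1 (5.97 CPM against 3.73 and 2.38) and Slc7a2 (203 CPM against 354 and 411), WT replicate 1 lay apart from the other WT libraries and toward the LCS libraries. Not all of the alpha cell genes went this way. For Gcg (12048 CPM against 15728 and 13957) and Ttr (345 CPM against 548 and 474) WT replicate 1 was the WT library farthest from LCS. For Gc it lay with the other WT libraries (53.0 CPM against 55.5 and 53.0), and for Irx2 it was the highest of them (6.63 CPM against 6.12 and 4.96).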
